A study of Mus musculus with 10 samples.

Results

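The livers described here are those of the 6 mice given metformin together with carbon tetrachloride (CCl4), and the subject is how far these 6 livers differed from one another in gene expression. They are all the arrays that the labels assign to this treatment, 6 of the 10 in the whole series; no contrast with the 4 mice given CCl4 alone is made. All 6 were male TG221 mice, which carry a miR-221 transgene, on the B6D2F2 background, and were 4 to 6 weeks old when dosing began. CCl4, a liver toxicant, was given by gavage as a 20% (v/v) solution in olive oil, 3 times weekly for 14 weeks. Metformin, 300 mg per kg body weight by mouth each day, was added 3 weeks into the CCl4 course, and livers were frozen at the end-point of 24 weeks. Each mouse gave 1 array, so a difference between arrays holds the mouse, its piece of liver and the hybridisation together. No liver free of CCl4 or of the transgene was analysed here, and the labels used here do not name the promoter of the transgene or say whether a piece held tumour, although they give hepatocellular carcinoma as the cell type. B6D2F2 names the second generation of a cross of the B6 and DBA/2 strains, so these mice need not share all their alleles.

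Of 55681 non-control probes on the array, 26672 were well above background on all 6 arrays. They measured 13591 of the 21613 genes that could be named, a gene with several probes being read from its brightest, and 9021 probes without a name. Every level below is the log2 of the processed spot intensity minus the same array's 75th percentile, so 1 unit is a doubling, and the SD is taken over the 6 mice on that scale. Acute phase proteins are secreted by hepatocytes when inflammatory cytokines reach the liver. PPAR-alpha is the nuclear receptor through which fatty acids switch on their own oxidation, and immediate early genes answer within minutes to growth factors, stress or handling of tissue. The unfolded protein response raises chaperones when proteins misfold in the endoplasmic reticulum, and the sterol pathway answers to the cell's cholesterol supply.

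The microRNA encoded by the transgene is shown because every liver carried it. Its sequence stands beside that of miR-222, its genomic neighbour, with bases 2 to 8, the seed by which a microRNA finds its targets, in capitals; both lie on the minus strand of the X chromosome (RefSeq, build GRCm38.p6, chrX:19146307-19146329 and chrX:19146901-19146923).
mmu-miR-221-3p: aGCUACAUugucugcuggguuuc
mmu-miR-222-3p: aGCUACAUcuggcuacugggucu
Both microRNAs share the seed.

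The 6 arrays were of like quality. Between 52.4% and 54.9% of probes were well above background, saturation was seen at 0 spots, and the scanner software marked 135 to 152 spots of each array as irregular, which were left out. Pearson's r between arrays, across genes, was 0.987 to 0.993. Mice 1 and 2 lay in row 1 of the slide and mice 3 to 6 in row 2. The 75th percentile of intensity was 363 and 351 in row 1 and 237 to 276 in row 2, so the groups of arrays did not overlap. All 22 hepatocyte markers listed were measured on every array, and their SDs ran from 0.10 to 0.42. Afp, a fetal and carcinoma gene, was dim, at -1.88 to -0.87.

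The brightest probes were mostly those of secreted liver proteins, and they varied little. The 12 brightest reported Alb (albumin), the apolipoproteins Apoa2 and Apoe, the major urinary proteins Mup1, Mup19 and Mup20, the alpha-1-antitrypsin genes Serpina1a, Serpina1c and Serpina1e, complement C3, Ambp (the bikunin precursor) and Kctd14. Brightness depends on the probe as well as on the transcript, so the order among them carries no meaning. Alb read 10.43, 10.39, 10.695, 10.82, 10.76 and 10.91 in mice 1 to 6 (SD 0.21). Apoa2 read 10.31, 10.25, 10.59, 10.74, 10.67 and 10.802 (SD 0.23), and Mup20, a male urinary pheromone, 9.92, 9.96, 10.39, 10.42, 10.37 and 10.49 (SD 0.25). The SDs of all 12 lay between 0.19 and 0.27, and highest over lowest mouse was 1.38-fold to 1.59-fold. On this scale mice 3 to 6 stood above mice 1 and 2 in all 12, and 71.6% (C3) to 97.1% (Mup20) of the variance lay between rows. The size of this step differed with the scaling, and its cause was not tested. Before it, the log2 intensity of Alb was 18.93, 18.84, 18.80, 18.84, 18.83 and 18.80, and 5 of the 12 genes were higher in row 2, by at most 0.05. After median scaling all 12 were still higher in row 2, by 0.127 to 0.318. After spike-in scaling 10 of the 12 were, with differences of -0.026 to 0.165. Quantile normalization gives each rank the same value on every array, so the brightest probes become nearly constant by construction. After it the SDs of the 12 were 0.09 or less and 6 were higher in row 2. None of the 12 passed the row test described further on, where their adjusted p-values in limma ran from 0.0830 to 0.242. Mup and Serpina1 genes are near-identical copies, so a probe may also read its relatives.

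Most genes varied far less than the few that led. The median SD over the 6 livers was 0.20, the middle 50% of genes lay between 0.13 and 0.30, and 79 genes reached an SD of 1. A gene with an SD of at least 0.5 is called variable here; 972 of 13591 genes (7.15%) were. Hnrnpl stood just inside this threshold at 0.5003 and Barx2 just outside at 0.4999, so the boundary separates no natural classes. Dim genes varied more: with genes split by mean level into 5 equal sets, 15.5% of the dimmest set were variable against 4.56% of the brightest. The noise of repeated spots was small beside the spread between mice; differences between arrays in labelling and hybridisation are not part of it. Over 279 probes spotted 10 times, repeated spots differed within an array by a median SD of 0.066, and the same probes differed between mice by 0.19, the latter being the larger in 251 of them. In the 4 livers given CCl4 alone, 303 of the 898 variable genes measured there (33.7%) also had an SD of at least 0.5, against 7.23% of all 13230 genes measured there.

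**Figure D1:**
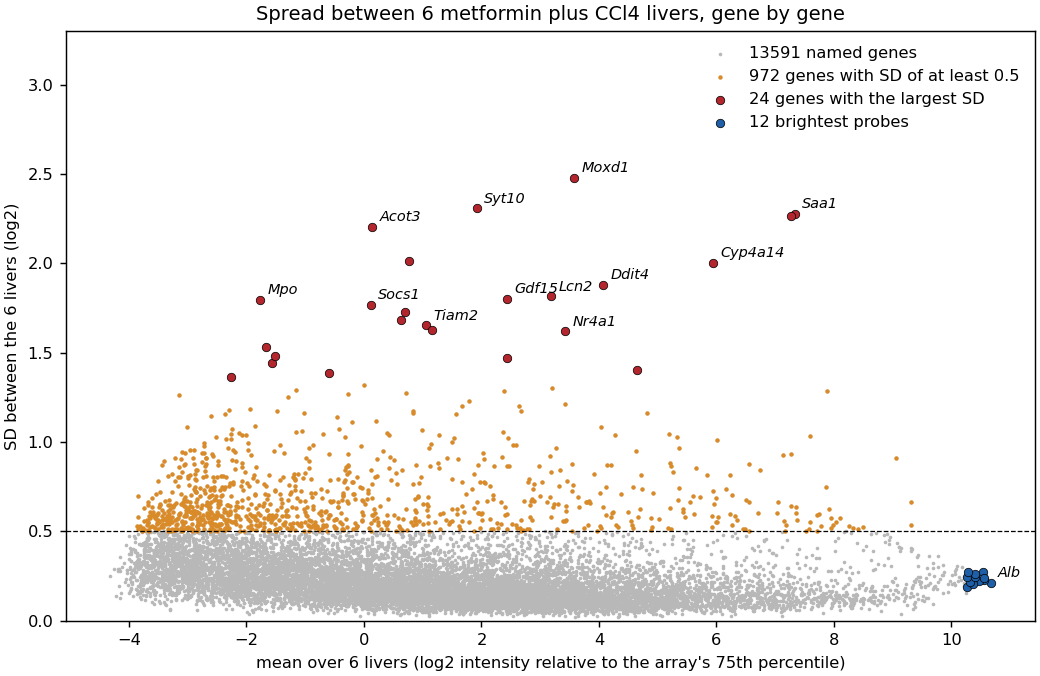
Each point is 1 of 13591 named genes: the horizontal axis gives its mean level over the 6 livers (log2, relative to the array's 75th percentile) and the vertical axis its SD between livers (log2); the dashed line marks an SD of 0.5. The 972 variable genes are orange, the 24 with the largest SD red, and the 12 brightest probes, all with an SD below 0.28, blue.

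The gene lists differed widely in how many members varied. Among 18 measured immediate early genes 13 were variable, and among 11 neutrophil markers 8 were. The counts were 11 of 25 for acute phase proteins, 10 of 23 for PPAR-alpha targets, 7 of 16 for lipid droplet genes, 7 of 17 for clock genes and 7 of 19 for the unfolded protein response. Against 7.15% of all genes, these shares run from 36.8% to 72.7%, with median SDs of 0.31 to 0.78. At the other end, 0 of 34 ribosomal protein genes, 0 of 31 complex I genes, 0 of 22 hepatocyte markers and 0 of 15 reference genes were variable. Of 14 genes listed for known differences between the B6 and DBA/2 alleles, 0 were variable. Among these Ren1 had the largest SD, 0.48. The mice were also unevenly placed among all variable genes, whatever their list. Highest in mice 1 to 6 were 122, 89, 168, 146, 220 and 227 variable genes. Lowest in mice 1 to 6 were 145, 212, 268, 100, 56 and 191. The counts of list members highest or lowest in a mouse, given below, were not tested against these numbers. They also include members that were not variable.

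**Figure D2:**
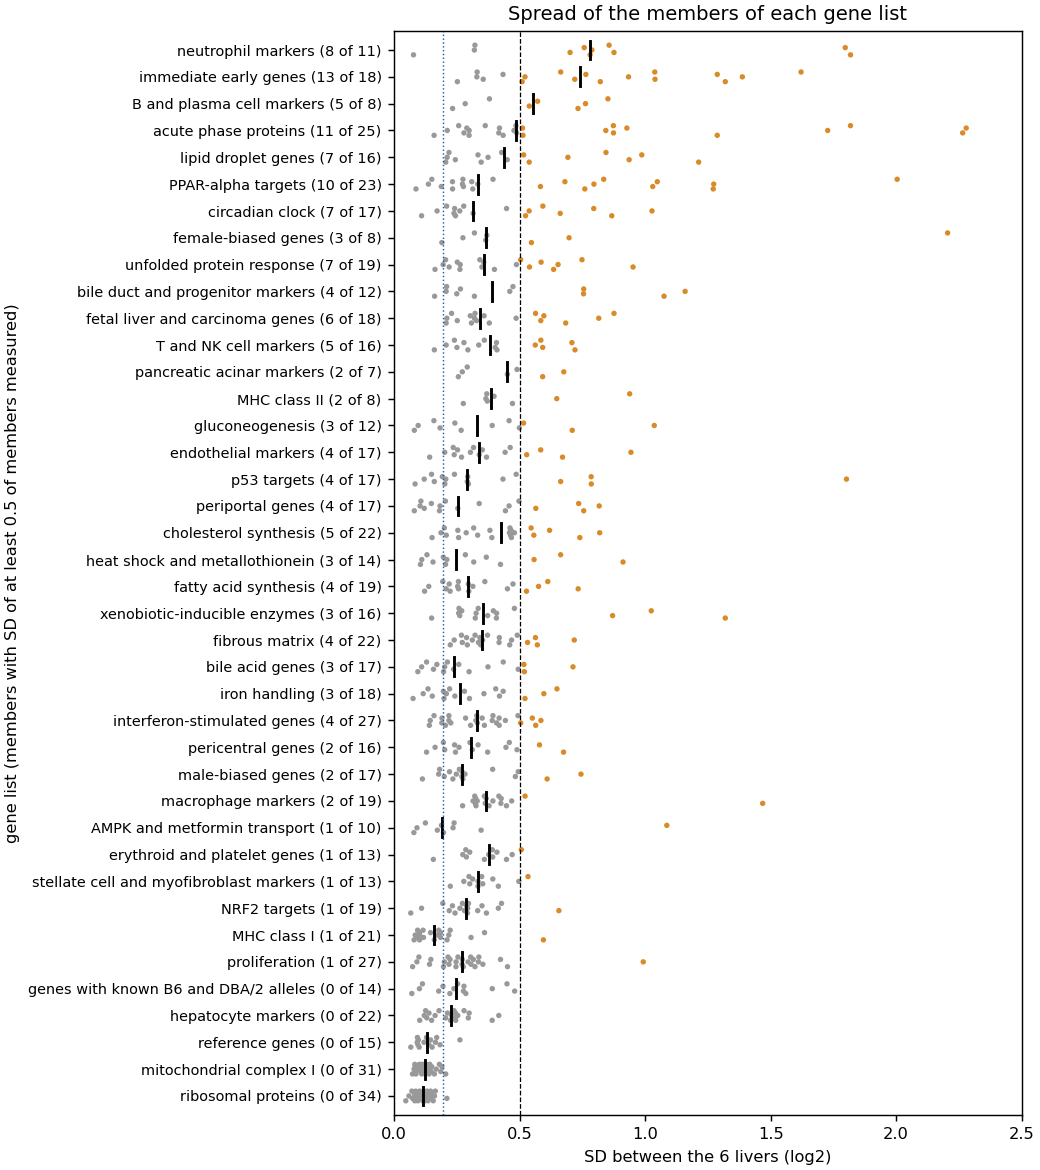
Each point is a measured member of a gene list, placed by its SD between the 6 livers (log2); orange points are at 0.5 or above (dashed line), the black bar is the list's median, and the dotted line the median of all genes (0.20). Counts of variable and measured members stand beside each list of at least 5 measured genes, from 8 of 11 neutrophil markers at the top to 0 of 34 ribosomal proteins at the bottom.

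The acute phase genes shared a pattern: low in mice 2 and 3, high in mice 1, 4 and 6, with mouse 5 mostly between. Saa1, serum amyloid A1, read 8.16, 4.74, 4.52, 9.9, 7.33 and 9.35 in mice 1 to 6, an SD of 2.28 and a 41.6-fold difference between mice 4 and 3. Its neighbour Saa2 read 8.01, 4.57, 4.54, 9.66, 7.43 and 9.43 (SD 2.27). Mice 2 and 3 lay close together in both genes and far below the other 4. Lcn2, lipocalin 2, which withholds iron from bacteria and is also made by neutrophils, read 4.82, 0.8, 1.03, 4.34, 3.55 and 4.61. The orosomucoid Orm3 read 1.63, -1.35, -1.67, 2.03, 1.42 and 2.09, and its relative Orm2 7.61, 6.32, 5.68, 7.93, 7.36 and 7.91. Fgl1, a secreted fibrinogen-like protein, read 8.92, 6.03, 6.46, 8.66, 8.36 and 8.84, and Apcs, serum amyloid P, 5.06, 3.19, 2.99, 4.61, 4.14 and 4.87. In all 7 of these genes, mice 2 and 3 were the lowest pair. Over the list, 22 of the 25 measured members were lowest in mouse 2 or 3, among them members that were not variable, such as Crp (SD 0.21), which is no strong acute phase reactant in mice. Socs3, the feedback inhibitor of interleukin-6 signalling, did not follow: it read 5.6, 3.88, 4.52, 3.28, 4.57 and 3.39, highest in mouse 1 and lowest in mouse 4. When variable genes were grouped by the correlation of their values over the 6 mice, 10 of the 11 variable acute phase genes fell into 1 group of 38 genes, with Lrg1 and the ubiquitin-like Ubd. A group built this way is a description of these 6 livers and carries no test.

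The promoters of 4 of these genes are shown because the members moved together and are known targets of C/EBP transcription factors. Each stretch is the 250 bases before the gene's start in RefSeq (build GRCm38.p6), 5′ to 3′ on the gene's strand, with matches to TTGCNNAA, the C/EBP motif, in capitals. Saa1 (chr7:46742981-46743230, minus strand) and Saa2 (chr7:46751583-46751832, plus strand) lie head to head; Orm2 is at chr4:63362199-63362448 (plus strand) and Lcn2 at chr2:32387740-32387989 (minus strand).
Saa1: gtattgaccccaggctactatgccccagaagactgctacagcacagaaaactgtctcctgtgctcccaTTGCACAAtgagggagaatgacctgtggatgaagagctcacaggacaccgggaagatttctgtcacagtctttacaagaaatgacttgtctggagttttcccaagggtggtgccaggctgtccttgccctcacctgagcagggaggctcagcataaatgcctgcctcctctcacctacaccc
Saa2: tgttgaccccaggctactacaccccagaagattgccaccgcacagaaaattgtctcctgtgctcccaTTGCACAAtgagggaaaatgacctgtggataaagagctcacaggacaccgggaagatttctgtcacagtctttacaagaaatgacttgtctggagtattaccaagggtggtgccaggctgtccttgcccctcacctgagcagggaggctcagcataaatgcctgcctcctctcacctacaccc
Orm2: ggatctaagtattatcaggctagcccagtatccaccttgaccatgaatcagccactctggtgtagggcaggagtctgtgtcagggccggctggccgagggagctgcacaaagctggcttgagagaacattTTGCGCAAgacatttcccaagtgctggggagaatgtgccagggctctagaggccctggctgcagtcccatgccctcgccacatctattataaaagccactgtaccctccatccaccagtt
Lcn2: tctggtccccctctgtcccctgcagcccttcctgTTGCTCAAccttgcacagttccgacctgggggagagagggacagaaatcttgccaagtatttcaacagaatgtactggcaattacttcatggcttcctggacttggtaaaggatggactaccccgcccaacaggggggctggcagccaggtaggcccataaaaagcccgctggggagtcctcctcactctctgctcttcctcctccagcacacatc
The match began 182 bases before the start of Saa1 and 183 before that of Saa2, and these promoters shared an unbroken stretch of 65 bases. The probes of Saa1 and Saa2 may each read both transcripts, given such similarity between the genes. Both strands were searched. Of 9 variable acute phase genes with a promoter in the table, 7 held the motif (77.8%): Saa1, Saa2, Saa3, Saa4, Orm2, Orm3 and Lcn2. It was in 96 of the promoters of 736 variable genes and in 9.56% of all 32851 promoters. This is 1 of 8 motifs searched, and a match is a run of letters, not a shown binding site.

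A second pattern joined fatty acid genes with immediate early genes: high in mice 1 and 3, low in mouse 4. Acot3, a peroxisomal acyl-CoA thioesterase, read 2.57, 0.17, 2.0, -3.52, 0.62 and -1.0 in mice 1 to 6 (SD 2.21, 68.4-fold between mice 1 and 4). Cyp4a14, a fatty acid omega-hydroxylase and a standard readout of PPAR-alpha, read 7.66, 5.61, 7.11, 2.15, 7.06 and 6.1. Mouse 4 stood far below the other 5 mice, which lay between 5.61 and 7.66. Without mouse 4 its SD was 0.83 instead of 2.0, that of Acot3 was 1.43, and that of Cyp4a10, the gene adjacent to Cyp4a14, 0.65. Cyp4a10 read 6.4, 5.25, 6.34, 3.59, 5.41 and 5.0, also lowest in mouse 4, and Acot1 3.96, 3.1, 4.22, 2.07, 3.32 and 2.44. Vldlr, the very low density lipoprotein receptor, read 0.05, -1.12, 0.35, -2.88, -1.02 and -1.56, and G0s2, an inhibitor of fat breakdown, 5.05, 1.66, 3.87, 2.54, 4.18 and 3.2; in G0s2 mouse 2 and not mouse 4 was lowest. Of the 23 measured PPAR-alpha targets, 14 were lowest in mouse 4 and 17 were highest in mouse 1 or 3. Not every member was variable: Cpt1a, the gate of mitochondrial oxidation, had an SD of 0.27. Pdk4, which spares glucose when fat is burned, and Fgf21, a fasting hormone of the liver, had patterns of their own. Pdk4 stood high in mouse 5 alone (0.84, -0.79, 0.56, 0.32, 3.06 and 0.3), and Fgf21 low in mouse 2 (1.0, -2.56, 0.7, -0.65, -0.28 and 0.11). Without mouse 5 the SD of Pdk4 was 0.62, and without mouse 2 that of Fgf21 was 0.68.

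The immediate early genes shared the low reading of mouse 4 but added mice 2 and 6 to it. Atf3, a stress-induced transcription factor, read 0.57, -1.75, 1.15, -2.41, 0.00 and -1.1. Fos read -0.9, -3.34, -1.18, -2.69, -1.41 and -2.95 and its partner Jun 4.74, 3.72, 5.79, 2.86, 4.81 and 3.72. Nr4a1, an orphan receptor induced by hormones and stress, read 5.55, 1.56, 3.77, 2.68, 4.99 and 2.0. Egr1, a growth-factor-induced zinc finger protein, read 2.53, 1.05, 3.15, 1.16, 1.55 and 1.77. In all 5, mice 1, 3 and 5 were high and mice 2, 4 and 6 low, except that in Egr1 mouse 6 stood above mouse 5. The mean of the 18 measured members, each centred on its own mean, was 0.54, 0.59 and 0.43 in mice 1, 3 and 5 and -0.33, -0.65 and -0.58 in mice 2, 4 and 6. The median share of variance between slide rows over the 18 was 8.47%, and that of Myc was 34.7%. Myc followed another line, with 2.76, 3.97, 3.12, 0.95, 2.83 and 0.71, and joined Socs1, Socs2 and Cish, inhibitors of cytokine signalling, in a group of 47 genes low in mice 4 and 6. Socs1 read 0.4, 2.23, 2.0, -2.09, -1.44 and -0.43 (SD 1.77) and Cish, a target of growth hormone signalling, 2.63, 4.37, 4.14, 2.0, 3.15 and 2.68; in both, mice 2 and 3 were the highest pair.

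**Figure D3:**
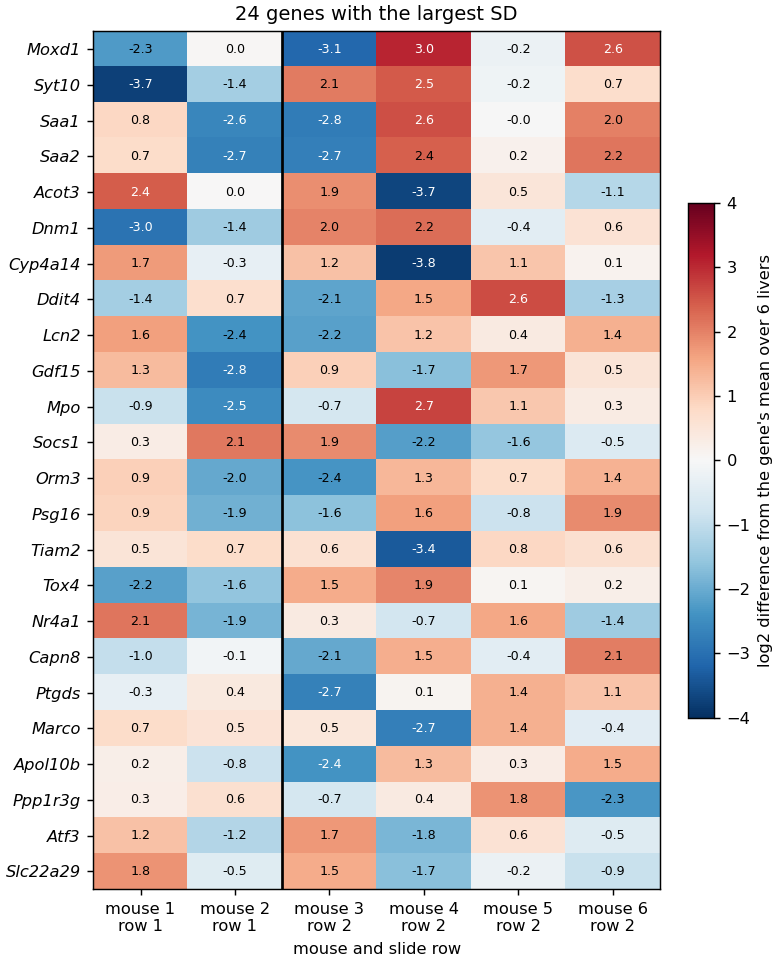
Rows are the 24 genes with the largest SD and columns the 6 mice, with the black line between slide rows 1 and 2; colour and number give the log2 difference from the gene's mean over the 6 livers. Saa1, Saa2, Lcn2 and Orm3 are blue in mice 2 and 3, and Acot3, Cyp4a14, Tiam2 and Marco are darkest blue in mouse 4.

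Neutrophil transcripts were highest in mouse 4. Mpo, the granule enzyme myeloperoxidase, read -2.64, -4.29, -2.45, 0.93, -0.67 and -1.44 in mice 1 to 6 (SD 1.8, 37.2-fold). S100a8 and S100a9, which together form calprotectin, read 1.47, 0.21, 0.74, 2.7, 1.59 and 0.99 and 3.7, 2.45, 2.88, 4.96, 3.89 and 3.35. The granule protein Camp read -0.17, -0.3, 0.07, 1.82, 0.8 and 0.55, and Ctsg, cathepsin G, -2.56, -3.02, -3.27, -0.75, -1.65 and -1.89. Mpo and Ctsg were dim, and after normexp background correction their SDs were 1.15 and 0.52, against 1.8 and 0.94 before it. Without mouse 4 the SD of S100a8 was 0.56 and that of Camp 0.47. Mouse 4 was the highest in each of these, and in 8 of the 11 measured neutrophil markers, and mouse 2 the lowest in 8 of 11. In tissue RNA, fewer cells of a type and less RNA per cell cannot be told apart. The other 4 listed markers, not well above background on every array, were not analysed here, and Lcn2 is listed both here and among the acute phase proteins. Beside these, the mean of the neutrophil members, each centred on its own mean, ran from -0.90 in mouse 2 to 1.08 in mouse 4, while that of the acute phase list was -0.83 in mouse 2, -0.78 in mouse 3, 0.41 in mouse 4 and 0.53 in mouse 6. The part of neutrophils in the Lcn2 values was not tested.

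Many macrophage and interferon genes were highest in mouse 4, with smaller differences. Of 19 measured macrophage markers, 12 were highest in mouse 4 and 13 lowest in mouse 6, though only 2 were variable, and the centred mean of the list was 0.27 in both mouse 1 and mouse 4. Clec4f, a marker of Kupffer cells, the resident macrophages of the liver, read 4.21, 4.09, 3.76, 4.76, 3.99 and 3.79, highest in mouse 4, without which its SD was 0.19. Adgre1, which encodes F4/80, read 1.73, 1.08, 0.96, 1.7, 1.15 and 0.5, with mice 1 and 4 close together at the top and mouse 6 lowest. Marco, a scavenger receptor of some macrophages, went the other way: it read 3.18, 2.98, 2.9, -0.29, 3.87 and 2.0, lowest in mouse 4. Without mouse 4 its SD was 0.67. The other variable member, Ccr2, a chemokine receptor of monocytes, read -2.46, -3.17, -2.49, -2.91, -3.34 and -3.81, highest in mouse 1. Of 27 interferon-stimulated genes, 18 were highest in mouse 4; Oasl2 read -0.14, 0.08, 0.47, 1.15, -0.26 and -0.33, with an SD of 0.32 without mouse 4. Just 4 of the 27 were variable.

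Several lymphocyte transcripts were highest in mice 1 and 2 and lowest in mouse 6. Ms4a1, which encodes the B cell antigen CD20, read -1.58, -1.09, -2.45, -2.14, -2.33 and -3.59. Cd79b, a part of the B cell receptor, read 0.47, 1.18, -0.28, 0.09, -0.03 and -1.01, and Cd3g, a part of the T cell receptor complex, -2.06, -2.05, -2.88, -3.42, -2.94 and -3.85. Fcgr2b, an Fc receptor of B cells and of the endothelium that lines liver sinusoids, read 3.03, 2.71, 2.2, 1.67, 1.64 and 1.33. The antigen-loading regulator H2-Oa read -2.1, -1.41, -2.48, -3.26, -2.97 and -4.09. These 5 were in a group of 41 genes for which the median share of variance between slide rows was 63.6%, so mouse and row cannot be told apart for mice 1 and 2. Within row 2, mouse 6 was the lowest in all 5. These are dim genes apart from Fcgr2b and Cd79b, and after normexp background correction the SD of H2-Oa was 0.35, that of Ms4a1 0.35 and that of Cd3g 0.23. The full lymphocyte lists were less uniform than these genes. Of 8 measured B and plasma cell markers, 4 were highest in mouse 2, 3 in mouse 4 and 0 in mouse 1. Lowest among these 8 were 3 in mouse 3 and 2 each in mice 2 and 6. Of 16 T and NK cell markers, 5 were highest in mouse 2 and 4 in mouse 1, and 8 were lowest in mouse 6. Endothelial markers followed another order: of 17, 8 were highest in mouse 1, 6 in mouse 3 and 0 in mouse 2, and 9 were lowest in mouse 6. Of the 8 measured MHC class II genes, which present antigen to T cells, the centred mean ran from 0.43 in mouse 2 to -0.69 in mouse 6, and 7 were lowest in mouse 6.

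Matrix genes were mostly highest in mouse 3 and lowest in mouse 6, although 3 of the 4 variable members peaked in mouse 4. Col1a1, the main collagen of scar tissue, read -1.36, -0.88, -0.11, 0.04, -1.65 and -1.45, and Col3a1 0.55, 0.8, 1.04, 1.24, 0.12 and -0.13. Thbs1, thrombospondin 1, read -4.0, -3.52, -2.9, -2.71, -3.36 and -4.1. Mice 4 and 3, in that order, were the highest in each; mouse 5 was lowest in Col1a1 and mouse 6 in the other two. Loxl1, an enzyme that cross-links elastin and collagen and the fourth variable member, read -3.82, -3.39, -2.51, -2.69, -3.74 and -3.69, highest in mouse 3 and lowest in mouse 1. Without mouse 4 the SD of Thbs1 was 0.49, and without mouse 6 that of Col3a1 was 0.44. Over the 22 measured matrix genes, 14 were highest in mouse 3 and 13 lowest in mouse 6, and 4 were variable. Among 13 markers of stellate cells and myofibroblasts, the cells that lay down this matrix, 7 were highest in mouse 3 and 7 lowest in mouse 6. Acta2, smooth muscle actin, read -0.46, -0.76, 0.01, 0.13, -0.84 and -0.37.

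Most measured genes of the unfolded protein response were highest in mouse 6. Creld2, a secreted protein induced by such stress, read 4.27, 3.64, 4.13, 4.61, 4.73 and 6.41 in mice 1 to 6 (SD 0.95). The chaperone Hspa5, also called BiP, read 6.78, 6.68, 6.93, 7.21, 7.41 and 8.04, and Manf, a secreted protein of the endoplasmic reticulum, 3.34, 3.13, 3.14, 3.61, 3.89 and 4.81. Asns, asparagine synthetase, a target of ATF4, read 0.19, -0.63, -0.42, -0.15, -0.09 and 1.22. These 4 were variable through mouse 6: without it the SDs were 0.43 for Creld2, 0.31 for Hspa5, 0.32 for Manf and 0.32 for Asns, all below 0.5. Derl3, another variable member, differed: its SD of 0.75 fell most, to 0.48, when mouse 5 was left out. Mouse 6 was the highest in 12 of the 19 measured members and mouse 2 the lowest in 8. The cell cycle inhibitor Cdkn1a, in the same group of 30 genes, read -0.8, -1.86, -0.58, -0.56, -0.19 and 0.53.

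The promoters of Hspa5 (chr2:34771840-34772089, plus strand) and Creld2 (chr15:88819396-88819645, plus strand) are shown for the ER stress element, CCAAT and CCACG with 9 bases between, in capitals; on the opposite strand it reads from CGTGG to ATTGG.
Hspa5: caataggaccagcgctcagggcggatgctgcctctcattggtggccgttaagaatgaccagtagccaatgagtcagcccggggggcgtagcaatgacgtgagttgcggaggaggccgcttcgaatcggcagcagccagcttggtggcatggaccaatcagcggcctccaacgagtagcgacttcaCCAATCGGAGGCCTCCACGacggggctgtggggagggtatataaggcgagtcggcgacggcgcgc
Creld2: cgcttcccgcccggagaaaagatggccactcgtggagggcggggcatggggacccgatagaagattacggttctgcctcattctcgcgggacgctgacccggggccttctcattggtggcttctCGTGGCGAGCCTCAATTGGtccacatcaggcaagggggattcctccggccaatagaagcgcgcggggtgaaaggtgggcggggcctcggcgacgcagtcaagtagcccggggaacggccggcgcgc
Of the 5 variable members with a promoter in the table, 3 held the element on either strand (Hspa5, Creld2 and Derl3), against 37 of all 32851 promoters (0.113%). Here too the members were counted by gene and the 32851 by promoter. None of the 10 variable immediate early genes or 9 acute phase genes with a promoter held the element. The 250 bases are a narrow window, and no match in it says nothing about the rest of the gene.

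Sterol synthesis was highest in mice 4 and 6 and lowest in mouse 3. Sqle, squalene epoxidase, read 4.59, 4.21, 3.51, 5.64, 4.79 and 5.6 (SD 0.82). Hmgcs1, which makes the precursor of mevalonate, read 5.77, 5.69, 5.57, 7.29, 5.77 and 6.92, and Fdps, farnesyl diphosphate synthase, 6.94, 7.0, 6.41, 7.97, 6.97 and 7.62. Without mouse 4 the SD of Fdps was 0.43. Over the 22 measured genes, 20 were highest in mouse 4 or 6 and 16 were lowest in mouse 3. The differences were modest, with 5 of 22 variable and a median SD of 0.42.

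Mouse 5 was the highest in 9 of the 12 measured gluconeogenesis genes and in several genes of no shared list. The immediate early list (5 of 18 highest in mouse 5) and the unfolded protein response (3 of 19) did not share this. Gadd45b, a stress sensor that also follows the xenobiotic receptor CAR, read 0.9, -1.09, -0.66, -0.26, 2.23 and -1.12 in mice 1 to 6 (SD 1.32). Igfbp1, which binds insulin-like growth factors and falls under insulin, read 7.64, 7.57, 6.59, 8.04, 9.29 and 6.46. Ddit4, an inhibitor of mTORC1 and a described target of miR-221, read 2.71, 4.75, 1.95, 5.62, 6.66 and 2.73 (SD 1.88), highest in mouse 5, with mice 2 and 4 next and mice 1, 3 and 6 lowest. Sik1, a kinase induced by cyclic AMP, read 1.91, 1.25, 1.13, 1.43, 3.24 and 0.64. Without mouse 5 the SD of Gadd45b was 0.83 and that of Sik1 0.46. Txnip, an inhibitor of glucose uptake listed with AMPK and metformin transport, read 4.08, 4.12, 3.72, 4.0, 5.83 and 2.43; Ppp1r3g, a glycogen-targeting subunit of protein phosphatase 1, 4.9, 5.28, 3.95, 5.0, 6.45 and 2.3. In both, mouse 5 was highest and mouse 6 lowest. The SD of Txnip was 0.71 without mouse 5, and that of Ppp1r3g 0.90 without mouse 6.

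Clock genes varied without a single leader. Arntl, the core activator BMAL1, read -0.82, -1.87, -1.46, -0.47, -1.15 and 0.39, and Dbp, one of the outputs that peak opposite to it, 6.47, 7.06, 6.85, 6.32, 6.69 and 6.25. These run in mirror image: mouse 6 was highest for Arntl and lowest for Dbp, and mouse 2 the reverse. Dbp was not variable (SD 0.31), and Arntl with Nr1d1, another clock gene, gave a Pearson's r of 0.23. Ciart, a circadian repressor, read -1.49, 0.57, 0.04, -1.46, 0.95 and -0.6, and Per1 3.92, 4.41, 3.91, 4.07, 5.3 and 4.38, highest in mouse 5, without which its SD was 0.24. The labels used here give a light-dark cycle but no time of day for each liver.

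Genes listed for AMPK and metformin transport mostly varied little. Of 10 measured, Txnip alone was variable. Prkaa1 and Prkaa2, the catalytic subunits of AMPK, had SDs of 0.078 and 0.23, and their upstream kinase Stk11 0.09. Among the smallest SDs of genes above the median signal were those of Washc1 (0.019), Cct8 (0.022), Bfar, Commd4, Arpc5, Mapk8ip3 and Chmp2a (0.027); Cct8, a subunit of the chaperonin that folds actin and tubulin, read 4.32, 4.34, 4.31, 4.31, 4.35 and 4.36. These small values depend on the scaling: after spike-in scaling the SD of Cct8 was 0.18 and that of Washc1 0.19. Another probe of Bfar had an SD of 0.57.

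**Figure D4:**
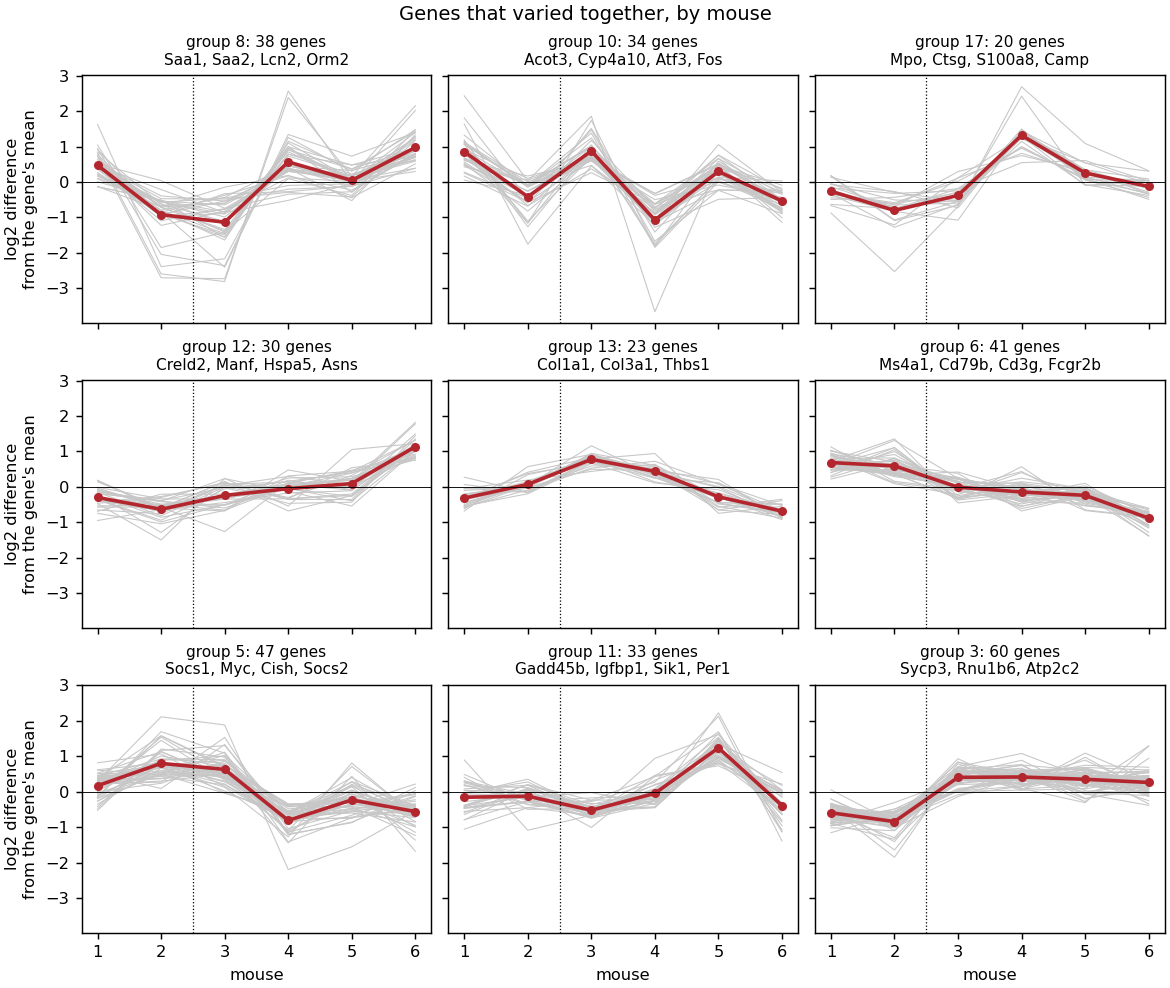
Each panel is a group of variable genes joined by the correlation of their values over the 6 mice; grey lines are single genes and the red line their mean, as log2 difference from each gene's mean, against mouse number, with the dotted line between slide rows. Group 8 dips in mice 2 and 3, group 10 in mouse 4, group 17 peaks in mouse 4, group 12 in mouse 6, group 11 in mouse 5, and group 3 steps at the dotted line.

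The 2 genes with the largest spread belonged to none of these pathways. Moxd1, related to the enzyme dopamine beta-hydroxylase, read 1.33, 3.62, 0.44, 6.61, 3.35 and 6.13 in mice 1 to 6, an SD of 2.48 and a 72.3-fold difference between mice 4 and 3. Mice 4 and 6 were high, mice 2 and 5 intermediate and mice 1 and 3 low. The genes nearest to it over the 6 mice were C8b, a complement component (r = 0.9972, SD 0.47), Ces4a (0.9912) and Wfdc15b (0.9905), picked as the best of all 13590 others. Syt10, a synaptotagmin, read -1.8, 0.57, 4.02, 4.38, 1.76 and 2.63 (SD 2.31), lowest in both mice of row 1, and Dnm1, a dynamin, -2.19, -0.66, 2.76, 3.0, 0.36 and 1.35, its nearest gene at r = 0.9939. Tox4 read -1.02, -0.42, 2.65, 3.1, 1.24 and 1.38 in the same order of rows. For Dnm1 and Tox4 another probe did not bear this out: its r with the first was -0.63 for Dnm1 and -0.88 for Tox4, with SDs of 0.34 and 0.27. Tiam2, an activator of the GTPase Rac, was low in mouse 4 alone, at -2.31 against 1.59 to 1.89 in the other 5, and without mouse 4 its SD was 0.12. Over all variable genes, 47 of 972 (4.84%) had 1 mouse standing apart from the other 5 in Dixon's test, against 611 of all 13591 genes (4.50%). Mouse 4 was that mouse in 14 of the 47 but in 83 of the 611, where mouse 6 led with 130.

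Whole-array structure did not reduce to 1 mouse. The first principal component of all named genes held 34.5% of the variance, with mice 4, 5 and 6 on one side (scores 0.06 to 0.24) and mice 1, 2 and 3 on the other (-0.15 each). The second held 21.1% and set mouse 3 apart at 0.24. The score on the first component fell with the array's 75th percentile of intensity (Pearson's r = -0.83, exact permutation p = 0.0444, adjusted over 3 array measures 0.133; Spearman's rho = -0.94, exact permutation p = 0.0167). Leaving out the 2 arrays farthest from the median percentile, r was -0.87. Within row 2 the 4 percentiles of 276, 270, 261 and 237 in mice 3, 5, 4 and 6 went with scores of -0.15, 0.06, 0.16 and 0.24, the same direction; row 1 holds just 2 arrays. Of the first component 45.6% lay between slide rows, and of the second 40.7%.

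Slide row took a smaller share of the variance in variable genes than in genes at large. The median share of variance between rows was 12.7% among the 972 variable genes and 20.8% among all named genes. With 2 and 4 arrays some share lies between rows without any row effect, and that level was not computed here. A limma fit compared row 2 (4 mice) with row 1 (2 mice) over 22612 features. In this fit 230 (1.02%) passed an adjusted p of 0.05, with a smallest adjusted p of 0.0275. An unadjusted p below 0.05 was seen for 4052 (17.9%). Of the 230, 220 were higher in row 2 and 10 lower. After scaling to spike-in controls, 127 of 1094 passing features were higher in row 2, so the direction of this split rests on the scaling. After scaling to the array median 0 passed, while 4275 had an unadjusted p below 0.05, and 0 passed when any 1 mouse was left out. Just 38 of the 230 were named genes (0.280% of 13591), against 192 of 9021 unnamed probes (2.13%). They were dim: the median mean level of the 230 was -1.97, against 0.10 for all features.

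Among the 972 variable genes, 20 (2.06%) differed between rows, a share raised by construction, since a row difference adds to the SD. None of the 24 genes with the largest SD passed, although Syt10, Dnm1 and Tox4 had 71.3% to 79.4% of their variance between rows, and no gene of the fixed lists passed. The largest difference among the 38 named genes that passed was 1.68 (SE 0.17, adjusted p = 0.0275 in limma), that of Sycp3, a protein of meiotic chromosomes, which read -3.65, -4.09, -2.4, -2.16, -2.07 and -2.14. Rnu1b6, a U1 small nuclear RNA, read 4.24, 4.15, 5.71, 6.01, 5.86 and 5.56, a difference of 1.59 (SE 0.15, adjusted p = 0.0275 in limma). Rn28s1, the 28S ribosomal RNA, read 7.19, 7.06, 8.3, 8.48, 8.36 and 8.09, a difference of 1.18 (SE 0.14, adjusted p = 0.0301 in limma). All 3 stood higher in every mouse of row 2 than in either mouse of row 1. The others among the 10 largest of the 38 were Atp2c2, Pramel26, Fsd1l, Sprr1a and the olfactory receptors Olfr285, Olfr103 and Olfr1312, with differences of 1.15 to 1.34. With the row means removed, 906 genes had an SD of at least 0.5, of which 758 were among the 972. The mice were not spread over rows by a design that the labels give, so row and mouse cannot be told apart.

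**Figure D5:**
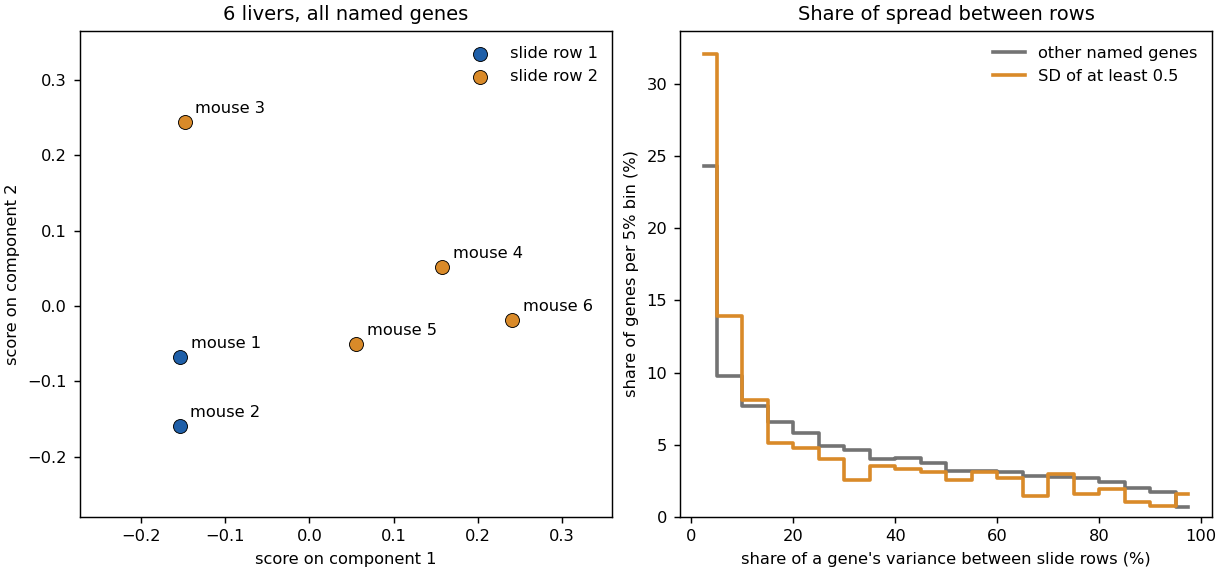
Left, the 6 livers by their scores on the first and second principal components of all named genes, coloured by slide row. Right, the share of a gene's variance that lies between rows (percent, in bins of 5) for the 972 variable genes and for the other named genes; the variable genes, with a median of 12.7%, pile up more at low shares.

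Pairs of genes with a known relation, not always in the same direction, were tested across the 6 mice, 28 of the 32 listed pairs being measured. The pairs were fixed with earlier results of the series known, so their choice was not independent of these data. An exact permutation test over all 720 pairings of mice, two-sided, can give no p below 0.00139. Pearson's r passed at an adjusted p of 0.05 for 7 pairs, at an unadjusted p of 0.05 for 11, and Spearman's rho for 3; 22 of 28 had r above 0 and the median r was 0.57. Neither that count nor the median takes account of the direction expected of a pair. S100a8 with S100a9 gave r = 0.997 (exact permutation p = 0.00139, adjusted 0.0194; rho = 1.0, p = 0.00278; r = 0.98 without the 2 mice farthest from the median; 0.99 within row 2). Saa2 with Orm2 gave r = 0.96 (exact permutation p = 0.00139, adjusted 0.0194; rho = 1.0, p = 0.00278; 0.98 without those 2 mice; 0.98 within row 2). The metallothioneins Mt1 and Mt2 gave r = 0.99 (exact permutation p = 0.00278, adjusted 0.0194; rho = 0.94, p = 0.0167; 0.90 without those 2; 0.996 within row 2).

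Hspa5 with Creld2 gave r = 0.97 (exact permutation p = 0.00278, adjusted 0.0194; rho = 0.94, p = 0.0167; 0.91 without the 2 farthest mice; 0.98 within row 2). Arntl with Dbp, which peak at opposite times of day, gave r = -0.95 (exact permutation p = 0.00417, adjusted 0.0222; rho = -1.0, p = 0.00278; -0.996 without those 2; -0.94 within row 2). Hmgcs1 with Sqle, enzymes of sterol synthesis, gave r = 0.89 (exact permutation p = 0.00556, adjusted 0.0222; rho = 0.94, p = 0.0167; 0.99 without those 2; 0.89 within row 2). Fasn with Acly, enzymes of fatty acid synthesis, gave r = 0.91 (exact permutation p = 0.00556, adjusted 0.0222; rho = 0.94, p = 0.0167; 0.87 without those 2; 0.86 within row 2). The collagens Col1a1 and Col3a1 missed the adjusted threshold (r = 0.91, exact permutation p = 0.0208, adjusted 0.0691), as did Saa1 with Lcn2 (0.94, 0.0222 and 0.0691). Fos with Egr1 (r = 0.77, exact permutation p = 0.0875, adjusted 0.186) and Cyp4a14 with Pdk4 (0.36, 0.349 and 0.574) did not pass either. Among other pairs, Pck1 with G6pc gave r = 0.36 and Ifit1 with Isg15 0.15 (exact permutation p = 0.510 and 0.797). The other clock pairs, Dbp with Per3 and Arntl with Nr1d1, gave r = 0.86 and 0.23 (exact permutation p = 0.0403 and 0.668, adjusted 0.1025 and 0.813). With 6 mice a p above the threshold does not show that a pair was unrelated.

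Genes next to each other on a chromosome were often alike. Of 104 neighbouring pairs in which both genes were variable, 23 (22.1%) had r above 0.9, against 1.97% of all pairs of variable genes. Among them were the paralogs Saa1 with Saa2 (0.998), Cyp4a10 with Cyp4a31 (1.0), S100a8 with S100a9 (0.997), Orm2 with Orm3 (0.982) and Acot3 with Acot5 (0.961). Probes of paralogs can share signal, so these may not count as separate genes. Another kept probe existed for 111 variable genes (134 probes); its median r with the first was 0.84, and 58 of the 134 had an SD of at least 0.5. Cyp4a31, Txnip, Acacb, Acss2 and Meg3 each had a further probe with r of 0.94 to 0.996, while Pnpla3, an acylglycerol lipase, had one at -0.70.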

How the data were processed

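Liver RNA of 6 mice was hybridised to 1-colour (Cy3) arrays. Per the file headers, Feature Extraction 10.7.3.1 gave each spot's processed intensity, background-subtracted and detrended, with no scaling between arrays. The authors' deposited table of log2 values, quantile-normalized per its header and limited to probes passing their comparison, served only as an alternative for 23 named genes.

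Probes well above background on all 6 arrays were kept, irregular spots left out, spots of a probe averaged, and log2 intensity minus the array's 75th percentile taken. Accessions were named through RefSeq (GRCm38.p6), which matched 28664 of 55681 probes; the brightest kept probe stood for a gene. Rows were compared with limma 3.58.1 (lmFit, eBayes, Benjamini-Hochberg; R 4.3.3). Tested on simulated data for that comparison (22612 features), the fit recovered 81 of 100 features moved by 2 on the log2 scale and 46 of 100 moved by 1, with 6 false calls. The simulated features varied independently of each other, with normal noise, while real features varied together. The number of false calls in the real fit cannot be read from it. Variable genes were grouped by average linkage on 1 minus r at a height of 0.3, keeping 27 groups of at least 10 genes.

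Named genes were the 12 brightest, the 24 largest SDs, up to 4 variable members per list and 4 per group, the 10 largest passing row differences, the 8 smallest SDs, the paired genes and the nearest genes. Some genes that this rule or the lists hold are not reported here. Other list and group members are named as examples chosen after their values were seen. The normexp alternative used median signals, since the files hold no mean signal column. Other alternatives changed scaling, probe, filter, irregular spots, mice, threshold and array weights. Members, lists and pairs were chosen with earlier results of these data known.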

Additional observations from a re-analysis of the deposited data

Results flagged for a closer look

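Cyp4a14 stood apart in mouse 4, whose level of 2.15 was the lowest of the 6 by a gap that Dixon's test, at its 95% critical value for 6 samples, sets apart from the others. Tiam2 stood apart in the same way, also in mouse 4, at -2.31. Among the array measures, the median local background of mouse 3 was the lowest, at 30.0, against 32 to 33 on the other 5 arrays. Chance gives about 1 such result in 20 groups of values.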

How the results depend on the processing

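The number of genes with an SD of at least 0.5 was 403 after normexp background correction, 4103 with no filter on dim probes, 1798 at an SD threshold of 0.4 and 335 at 0.7, and 922 to 1082 when 1 mouse was left out. Of the 403, 395 were among the 972. The limma count between slide rows was 0 after median scaling (4275 at an unadjusted p below 0.05), 53 after quantile normalization, 1094 after spike-in scaling, 1021 after normexp, 11073 without the filter and 517 with array weights. It was 0 to 0 when 1 mouse was left out, with 2316 to 4684 at an unadjusted p below 0.05. The median row difference of all features was 0.05, and -0.13 after median scaling, -0.28 after spike-in scaling and 0.25 without the filter. Of the passing features, 95.7% were higher in row 2, against 11.6% after spike-in scaling. Gene pairs passing were 4 after quantile normalization and 0 to 5 with 1 mouse left out. The first component against the 75th percentile gave r = -0.88 after median scaling (exact permutation, adjusted p = 0.0292). Of the SDs of 253 named genes, 86 moved by over 1.5 times under normexp, 44 within slide rows, 18 to 26 under another scaling and 0 under a looser filter, no filter or irregular spots kept; of 392 recomputed pair correlations 0 reversed in direction. Causes were not tested. No paired analysis was possible because only 1 group was analysed. The number of arrays, 6, limits the precision of every SD.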

Other observations

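Several further sets of genes that ran together over the 6 livers are given as values. The metallothioneins Mt1 and Mt2, small proteins that bind zinc and copper, read 9.54, 8.78, 8.22, 9.62, 9.91 and 9.78 and 9.28, 8.51, 7.47, 9.55, 9.76 and 9.79 in mice 1 to 6, both lowest in mouse 3, without which their SDs were 0.44 and 0.53. They belonged to the largest group of co-varying genes, 88 in all, which had a centred mean of -1.12 in mouse 3. Some bright members of this group ran nearly parallel. Epha5 read 8.15, 8.07, 6.92, 7.71, 8.58 and 8.24, and Hecw1 8.22, 8.14, 7.05, 7.83, 8.68 and 8.32. Whether the probes of this group share signal was not tested, so its members may not count as separate genes. Lpin1, a phosphatidate phosphatase, read 0.92, 2.84, 3.1, 4.29, 4.55 and 3.49, and Zbtb16, a transcription factor induced by glucocorticoids, 0.52, 2.44, 2.88, 3.24, 2.6 and 4.15. Tsc22d3, the glucocorticoid-induced leucine zipper, read 2.66, 3.85, 3.57, 4.62, 4.02 and 4.21. Without mouse 1 the SD of Lpin1 was 0.74, that of Zbtb16 0.68 and that of Tsc22d3 0.39. All 3 were in a group of 20 genes with a centred mean of -1.22 in mouse 1, and its median share of variance between slide rows was 71.6%.

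Gdf15, a stress hormone, read 3.71, -0.35, 3.37, 0.78, 4.16 and 2.94, and Inhbe, an inhibin subunit secreted by the liver, 3.24, 0.71, 3.54, 1.85, 1.99 and 2.86. Both fell in a group of 17 genes with a centred mean of -1.30 in mouse 2. The chemokine Cxcl1 read 3.25, 0.71, 1.88, 0.53, 1.58 and 1.03, and Bcl6, a transcriptional repressor, 5.12, 3.35, 2.79, 2.77, 3.17 and 2.39; with Socs3 and Junb they were in another group of 17, with a centred mean of 1.24 in mouse 1. Without mouse 1 the SD of Cxcl1 was 0.57 and that of Bcl6 0.38. Ptgds, prostaglandin D2 synthase, read -1.85, -1.14, -4.24, -1.41, -0.09 and -0.39, and without mouse 3 its SD was 0.73 instead of 1.48.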
